A study of Mus musculus with 9 samples.

Results

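p53, encoded by Trp53 in the mouse, and 9 of its established target genes were followed across 9 RNA-seq libraries of primary renal tubular epithelial cells. The 10 genes were taken by symbol from a table of 31167 genes, and all 10 were among the 13985 genes whose mean level reached 0.5 FPKM and that were therefore tested. FPKM counts fragments relative to gene length and library size, so levels of different genes can be set beside each other, though only roughly. The length that gave whole reads here was that of all annotated exons of a gene merged. It can exceed the length of the transcripts present, which would understate a level. The 9 targets were Mdm2, Trp53inp1, Ccng1, Bax, Bbc3, Pmaip1, Sesn1, Phlda3 and Btg2.

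The cells came from the kidney of C57BL/6 mice, were grown to about 50% confluence and formed 3 groups of 3 libraries. Sham was the untreated control, H/R cells were kept in glucose-free medium at 1.0% oxygen for 6 h and then in complete medium with normal oxygen for 18 h, and EGR1OV cells received a plasmid that overexpresses Egr1 from a CMV promoter. The labels repeat a single protocol text, with the transfection reagent EndoFectin Max in it, for every library, and do not say whether Sham or H/R cells were transfected. No group with an empty plasmid was among the groups compared, so Egr1 itself and the transfection cannot be told apart. The comparison of H/R with Sham asks how hypoxia without glucose, followed by reoxygenation in complete medium, changed the cells. Low oxygen and the lack of glucose cannot be told apart in it. That of EGR1OV with Sham asks which genes differ in cells given the Egr1 plasmid, whatever part of that is due to Egr1. Nothing in the labels says that the libraries of a group were separate cultures or animals, so p-values measure the spread between these libraries, which may be technical.

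p53 is a transcription factor that is kept scarce by Mdm2, a ubiquitin ligase that is itself a p53 target and so closes a feedback loop. DNA damage and other stresses release p53 from Mdm2, mostly by changing the protein rather than its mRNA, and p53 then binds a pair of short palindromic half-sites near its target genes. The targets arrest the cell cycle, restrain growth signals or open the mitochondrial path to apoptosis, and in the kidney this pathway is known for its part in tubular injury after ischemia and toxins.

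The stretches of promoter most like a p53 site are shown first, since the members are genes that p53 is known to act on, and no readout of binding was made here. RefSeq promoter windows of build GRCm38.p6, from 250 bases before to 50 bases after each transcription start, were found for 8 of the 10 members, in 11 windows. Trp53inp1 and Pmaip1 were not matched. The 20-base p53 full site (2 half-sites of 10 bases with no spacer, the C and G of each core kept) was searched on both strands, and the search was chosen after the expression values had been seen. In the lines that follow, capitals mark the bases aligned to the site, and each sequence is read 5′ to 3′ on the strand of its gene. Distances, here and below, are to the start of the window that held the match. Bbc3 had 3 windows and Sesn1 had 2, and the start used for each lies inside the gene, downstream of its first base.
Ccng1, full site with 1 mismatch, 195 bases before the start, chr11:40755457-40755486, minus strand: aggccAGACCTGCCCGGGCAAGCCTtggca
Trp53, full site with 3 mismatches, 75 bases before the start, chr11:69580279-69580308, plus strand: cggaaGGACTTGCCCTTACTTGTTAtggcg
Bbc3, full site with 3 mismatches, 97 bases before the start, chr7:16309481-16309510, plus strand: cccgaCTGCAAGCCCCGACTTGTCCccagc
Sesn1, full site with 3 mismatches, 173 bases before the start, chr10:41887261-41887290, plus strand: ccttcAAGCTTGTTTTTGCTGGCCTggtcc
Bax, exact half-site, 201 bases before the start, chr7:45467080-45467109, minus strand: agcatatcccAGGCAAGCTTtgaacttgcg
Mdm2, exact half-site, 186 bases before the start, chr10:117710925-117710954, minus strand: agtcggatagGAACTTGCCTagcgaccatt
Cdkn1a, full site with 1 mismatch, 51 bases before the start, chr17:29090923-29090952, plus strand: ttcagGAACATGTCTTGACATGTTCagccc

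Cdkn1a, the p21 cell cycle inhibitor and the best known p53 target, is not a member and is printed for comparison. Of the 32851 windows in the RefSeq table, 0.067% hold a full site with at most 1 mismatch, which Ccng1 and Cdkn1a do, and 1.38% hold one with at most 3. An exact half-site stands in 8.36% of windows, so the half-sites of Bax and Mdm2 are matches of a frequent kind. Among the 8 members with a window, 4 held a full site with at most 3 mismatches and 5 an exact half-site, against 1.63% and 9.55% of the 27025 genes with a window. The members were chosen as known p53 targets, and a gene with several windows has more room for a match. These shares are therefore a description with no test. GCGNGGGCG, the usual Egr1 motif, was searched on both strands as well, because EGR1OV cells carried the Egr1 plasmid. It stands in 5.55% of windows, or in those of 6.27% of genes, and was found for 3 of the 8 members, Bbc3, Btg2 and Sesn1. The match of Sesn1, 10 bases before its start, lies on the strand opposite to the gene. So does a further match of Bbc3, 141 bases before another of its starts. Only matches on the strand of the gene are printed.
Bbc3, 49 bases before the start, chr7:16309524-16309552, plus strand: ctggcgtcacGCGGGGGCGgggcgtggga
Btg2, 131 bases before the start, chr1:134079268-134079296, minus strand: cgcctgggagGCGCGGGCGagctggcggg
Here the capitals mark the motif. The window of Phlda3 held neither motif. A match is a description of these letters, and binding was not measured.

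The number of reads by which each library was scaled, recovered from the steps between low FPKM values, was 16183616 to 18384020. It need not equal the number sequenced. The check of the labels was Egr1, for which Sham libraries held 6.09 to 6.91 FPKM, H/R libraries 7.48 to 8.57 FPKM and EGR1OV libraries 40.1 to 45.7 FPKM. The noncoding RNA Gm23935 took 0.541% to 7.34% of the FPKM sum and was high in Sham 3, H/R 2, H/R 3 and EGR1OV 3. The summed level of 10 leukocyte markers reached 152 to 158 FPKM in Sham libraries, 129.7 to 138 FPKM in H/R libraries and 41.0 to 48.5 FPKM in EGR1OV libraries, where 8 of 9 tested markers were called lower and Cd14 higher. The 10 tubule markers summed to 1928 to 1965 FPKM in Sham libraries, 1784 to 1862 FPKM in H/R libraries and 1269.9 to 1376 FPKM in EGR1OV libraries, where 3 of 9 tested markers were called lower and 1 higher. Of them the keratin Krt8 averaged 1014 FPKM in Sham, the proximal tubule endocytic receptor Lrp2 averaged 3.60 FPKM, and the proximal phosphate transporter Slc34a1 was at or below 0.0362 FPKM in all libraries and at 0 in EGR1OV. The 6 endothelial markers summed to 9.81 to 10.1 FPKM in Sham libraries, 9.79 to 10.1 FPKM in H/R libraries and 6.76 to 7.43 FPKM in EGR1OV libraries, and the 6 fibroblast markers to 31.8 to 33.4, 38.0 to 39.5 and 36.8 to 41.8 FPKM, with Lum at 0 in Sham and H/R. The part of these shifts in the values of the p53 genes was not tested. In bulk RNA, fewer cells of a type and less RNA per cell cannot be told apart.

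In Sham cells most members were abundant transcripts. Ccng1 and Pmaip1 ranked 112 and 114 among the 13985 tested genes by mean FPKM, at 259 ± 7.11 and 258 ± 5.13 FPKM (SD, n = 3), and differed by less than that spread. Phlda3 followed at 153 ± 3.81 FPKM (rank 235). Btg2 (74.5 ± 2.56 FPKM) and Mdm2 (67.9 ± 2.12 FPKM) lay next, with separate ranges. Trp53 itself, at 46.2 ± 1.83 FPKM, ranked 995 and stood below 5 of its 9 targets. Trp53inp1 (37.5 ± 0.688 FPKM), Bax (27.9 ± 1.67 FPKM) and Bbc3 (17.3 ± 0.377 FPKM) came after it, each below the range of the gene before. Sesn1 was the lowest member at 2.67 ± 0.198 FPKM (rank 9595), with 163 to 200 reads per Sham library, against 14581 to 15750 reads for Ccng1. Its relative spread between Sham libraries, with an SD of 7.43% of the mean, was the largest of the 10. Outside the members, Cdkn1a was at 242 ± 2.04 FPKM (rank 132) and Gdf15, a secreted stress cytokine, at 334 ± 3.08 FPKM (rank 82).

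**Figure D1:**
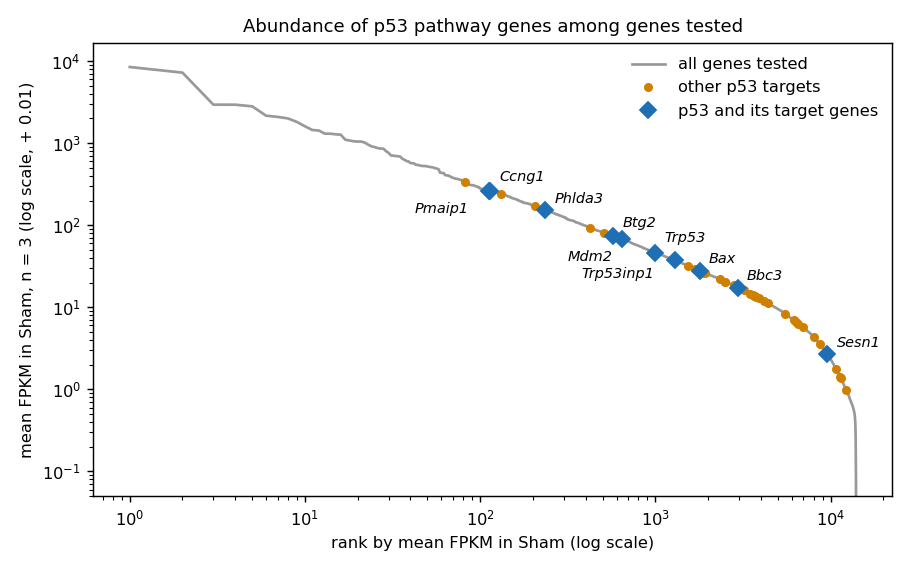
Mean FPKM in the 3 Sham libraries (vertical, log scale, 0.01 added) against rank among the 13985 tested genes (horizontal, log scale). The grey line holds all tested genes, blue diamonds the 10 members and orange circles the 39 other p53 targets measured. Ccng1 and Pmaip1 stand at ranks 112 and 114, Bbc3 at 2950 and Sesn1 far to the right at 9595.

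EGR1OV against Sham. In EGR1OV cells Trp53 and 4 targets (Mdm2, Bax, Phlda3, Btg2) were higher and Ccng1 was lower at an adjusted p under 0.05. On the log2(FPKM + 1) scale, none of these 6 differences reached the 1.3-fold size that a call also required. A gene was called when its adjusted p was under 0.05 and its difference of log2(FPKM + 1) exceeded 0.3785 in size. By that rule 0 of the 10 members were called, while 16.4% of all tested genes were. With no fold threshold, 6 of 10 members passed, against 45.9% of all tested genes. They were 5 higher and 1 lower, beside 26.1% and 19.8% of all tested genes. Groups did not overlap for 6 of 10 members (5 higher and 1 lower), against 55.7% of all tested genes (31.0% higher and 24.6% lower). The median difference of the 10 members was 0.096 on the log2 scale, and that of all tested genes was 0.017. All differences given are on this log2(FPKM + 1) scale, which understates changes, most of all those of low genes such as Sesn1.

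Trp53 (chr11:69580359-69591873) encodes p53. It was at 48.3, 45.1 and 45.2 FPKM in Sham and at 60.3, 61.8 and 58.1 FPKM in EGR1OV. Every EGR1OV library was above every Sham library, by 0.37 (SE 0.041, adjusted p = 6.71e-05, 95% interval 0.28 to 0.46), which is just under the threshold. The plain ratio of mean FPKM, EGR1OV to Sham, was 1.3. Trp53 was called in 3 of 19 alternative settings, without Sham 1 (0.40), without EGR1OV 3 (0.39) and with voom on the recovered reads (0.379). With 3 libraries against 3, the exact two-sided permutation test cannot give less than p = 0.1, its value for each gene whose groups do not overlap. A processed pseudogene, Trp53-ps, resembles the transcript, and how reads were shared with it was not followed.

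Mdm2 (chr10:117688875-117710758), the ubiquitin ligase that degrades p53, was at 69.8, 65.6 and 68.3 FPKM in Sham and at 78.2, 74.5 and 73.2 FPKM in EGR1OV. The groups did not overlap and differed by 0.15 (SE 0.035, adjusted p = 0.00686). The ratio of Mdm2 to Trp53 was 1.44 to 1.51 in Sham and 1.205 to 1.298 in EGR1OV, so Mdm2 was higher by a smaller factor than Trp53 (exact permutation p = 0.1, two-sided, the smallest possible). Trp53inp1 (chr4:11156431-11174379), whose stress-induced protein acts with p53 and in autophagy, was at 37.7, 37.9 and 36.7 FPKM in Sham and 42.5, 37.9 and 40.1 FPKM in EGR1OV. Its groups overlapped at their edge, and the difference of 0.096 did not pass (adjusted p = 0.119).

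Btg2 and Phlda3 were higher in EGR1OV, Ccng1 was lower, and Sesn1 did not pass. Btg2 (chr1:134075170-134079120), an antiproliferative protein that promotes mRNA deadenylation, was at 76.4, 75.6 and 71.6 FPKM in Sham and at 87.7, 90.1 and 88.7 FPKM in EGR1OV. These groups stood well apart, by 0.25 (SE 0.028, adjusted p = 8.41e-05), with the smallest error among the members. Phlda3 (chr1:135766119-135769136), a PH-domain protein that competes with Akt for membrane lipids, was at 154, 149 and 157 FPKM in Sham and at 165, 166 and 160.5 FPKM in EGR1OV. Its difference was 0.096 (SE 0.031, adjusted p = 0.0314), and its adjusted p was under 0.05 in 10 of 19 alternative settings, with a range of 0.0186 to 0.112. Phlda3 no longer passed without Sham 1 (0.0665), Sham 2 (0.112), EGR1OV 1 (0.0823) or EGR1OV 2 (0.0898), the values being adjusted p.
Ccng1 (chr11:40748552-40755311), cyclin G1, recruits the phosphatase PP2A to Mdm2 and carried the closest match to a p53 site among the members. It was at 252, 257 and 266 FPKM in Sham and at 230.2, 211 and 221 FPKM in EGR1OV. All EGR1OV libraries were below all Sham libraries, by -0.23 (SE 0.035, adjusted p = 0.000538, 95% interval -0.31 to -0.15), the only member that passed in this direction. Sesn1 (chr10:41809935-41908424), a sestrin that restrains mTORC1, was at 2.49, 2.88 and 2.63 FPKM in Sham and at 1.95, 2.197 and 2.90 FPKM in EGR1OV. EGR1OV 3 held the highest value of both groups and the other EGR1OV libraries lay below Sham, and the difference of -0.14 did not pass (SE 0.115, adjusted p = 0.355, 95% interval -0.40 to 0.12).

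Of the 3 apoptosis genes, Bax passed and the BH3-only genes did not. Bax (chr7:45461697-45466898), which permeabilizes the outer mitochondrial membrane, was at 29.8, 26.7 and 27.2 FPKM in Sham and at 32.5, 33.5 and 32.8 FPKM in EGR1OV. The groups were separate and differed by 0.23 (SE 0.055, adjusted p = 0.00673). Under quantile normalization neither Bax (0.15, adjusted p = 0.0558) nor Mdm2 (0.098, adjusted p = 0.0533) passed, which gave the highest adjusted p of either gene over 19 alternative settings (lowest 0.000948 and 0.00054). Bax shares 192 of its 1576 exon bases (12.2%) with Gm45808 on the same strand, so a part of its reads cannot be assigned with certainty. Set against Bcl2l1, which encodes the survival protein Bcl-xL, Bax was 0.596 to 0.692 in Sham and 0.747 to 0.769 in EGR1OV. Bbc3 (chr7:16308393-16318205), which encodes Puma, was at 17.7, 17.3 and 16.9 FPKM in Sham and at 17.3, 19.04 and 17.8 FPKM in EGR1OV, overlapping groups with a difference of 0.055 (adjusted p = 0.306, 95% interval -0.037 to 0.15). Pmaip1 (chr18:66458604-66465550), which encodes Noxa, was at 259.8, 262 and 252 FPKM in Sham and at 254, 224 and 245 FPKM in EGR1OV. EGR1OV 2 lay furthest below Sham, and the difference of -0.10 did not pass (adjusted p = 0.10, 95% interval -0.20 to 0.0018).

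**Figure D2:**
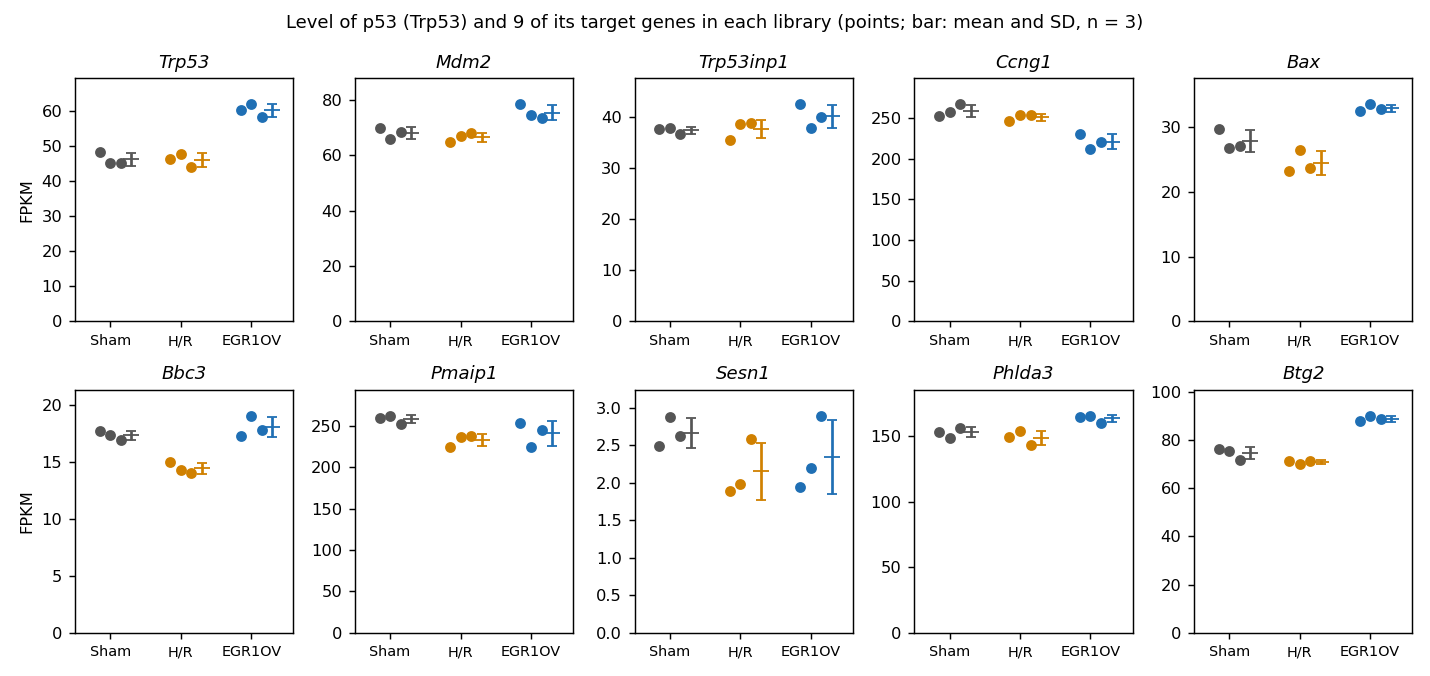
FPKM (vertical, from 0, a separate linear scale in each panel) of the 10 members in each library of Sham (grey), H/R (orange) and EGR1OV (blue); points are libraries and bars the mean and SD (n = 3). Trp53, Mdm2, Bax, Phlda3 and Btg2 stand highest in EGR1OV and Ccng1 lowest there, while Bbc3 is lowest in H/R (14.0 to 14.98 FPKM).

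H/R against Sham. After hypoxia and reoxygenation Trp53 and Mdm2 differed from Sham by less than their error, and the BH3-only gene Bbc3 was lower. Here a call required an adjusted p under 0.05 and a difference over 0.263 in size, a 1.2-fold change. None of the members reached both (0 of 10, with 4.25% of all tested genes called). With no fold threshold, 1 of 10 passed, Bbc3, against 11.7% of all tested genes. That made 0 members higher and 1 lower, beside 4.15% and 7.54% of all tested genes. Groups did not overlap for 4 members (Bax, Bbc3, Pmaip1 and Btg2), each lower in H/R, against 33.6% of all tested genes (11.8% higher and 21.8% lower). The median of the members was -0.057, and that of all tested genes -0.030.

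Trp53 was at 46.4, 47.8 and 43.9 FPKM in H/R, within the span of the Sham values but for H/R 3. The difference was -0.0056 (adjusted p = 0.95), and its 95% interval of -0.097 to 0.086 leaves room for a change of up to that size either way. Mdm2, at 64.7, 67.0 and 67.9 FPKM, overlapped Sham (difference -0.030, adjusted p = 0.625, 95% interval -0.11 to 0.048). For Trp53inp1 the 3 libraries held 35.6, 38.6 and 38.8 FPKM, on both sides of Sham, with a difference of 0.0072 (adjusted p = 0.944). For Trp53, Mdm2 and Trp53inp1 no interval reached further from 0 than 0.112 on the log2 scale.

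Of the apoptosis genes, Bbc3 passed the adjusted p and Bax and Pmaip1 did not. Bbc3 was at 14.98, 14.3 and 14.0 FPKM in H/R, all below the lowest Sham value of 16.9 FPKM. Its difference of -0.25 (SE 0.041, adjusted p = 0.00708, 95% interval -0.34 to -0.16) fell short of the 1.2-fold threshold, and Bbc3 was called without H/R 1 (-0.27) and with voom on recovered reads (-0.26). Bax was at 23.2, 26.5 and 23.7 FPKM, of which H/R 2 nearly touched the Sham range, and differed by -0.18 (SE 0.055, adjusted p = 0.0625). Pmaip1 was at 224, 237 and 238 FPKM, below every Sham library, with a difference of -0.15 (SE 0.045, adjusted p = 0.0672). Neither passed, though the unadjusted 95% intervals of both (-0.31 to -0.059 for Bax and -0.25 to -0.046 for Pmaip1) leave out 0. In the same comparison 2 of 9 tested leukocyte markers were called lower, 2 of 3 tested fibroblast markers were called higher (Col1a1 by 0.27 and Col1a2 by 0.32), and none of 4 tested endothelial markers was called. Their part in these values was not tested.

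None of Ccng1, Phlda3, Btg2 and Sesn1 passed the test in H/R. Ccng1, at 246, 253 and 254 FPKM, overlapped Sham (difference -0.044, adjusted p = 0.456), and so did Phlda3 at 149, 154 and 143 FPKM (difference -0.041, adjusted p = 0.44). Btg2, at 71.5, 70.1 and 71.2 FPKM, lay just below the lowest Sham library, with a difference of -0.070 (adjusted p = 0.144). Sesn1 was at 1.89, 1.98 and 2.59 FPKM, of which H/R 3 fell inside the Sham range. Its difference of -0.22 was larger in size than those of Bax and Pmaip1 and had the largest error of the members (SE 0.115, adjusted p = 0.244, 95% interval -0.48 to 0.037).

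EGR1OV against H/R. Set directly against each other, EGR1OV libraries held more Trp53, Mdm2, Bax, Bbc3, Phlda3 and Btg2 and less Ccng1 than H/R libraries. Bax alone was called, 1 of 10 members, while 18.9% of all tested genes were called by the same 1.3-fold rule. With no fold threshold 7 of 10 members passed, 6 higher and 1 lower, against 51.0% of all tested genes (32.0% higher and 19.0% lower). Groups of 7 members, 6 higher and 1 lower, did not overlap, against 58.6% of all tested genes (36.6% higher and 22.0% lower). The median of the members was 0.16 and that of all tested genes 0.055. The H/R and EGR1OV values are those given above, and since both groups were first set against the same Sham libraries, the comparisons are not independent.

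Bax differed by 0.42 (SE 0.055, adjusted p = 0.000193, 95% interval 0.29 to 0.54). Its highest H/R value was 26.5 FPKM and its lowest EGR1OV value 32.5 FPKM, with Sham between the group means. Under median-ratio scaling the difference was 0.35 and under quantile normalization 0.32, below the fold threshold in both, so the call rests on the FPKM scaling. Trp53 differed by 0.38 (SE 0.041, adjusted p = 5.37e-05, plain ratio of mean FPKM 1.305) and missed the threshold by less than its error. It was called without H/R 1 (0.38), H/R 2 (0.40) or EGR1OV 3 (0.40), with a pseudocount of 0.1 (0.38) and with voom (0.38). Btg2 differed by 0.32 (SE 0.028, adjusted p = 1.43e-05), the smallest adjusted p among the members.

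Bbc3 differed by 0.30 (SE 0.041, adjusted p = 0.000235), with H/R at 14.0 to 14.98 FPKM and EGR1OV at 17.3 to 19.04 FPKM. This is the member for which EGR1OV lay at the Sham level and H/R below it. Mdm2 (0.18, adjusted p = 0.0022) and Phlda3 (0.14, adjusted p = 0.00519) were higher in EGR1OV, and Ccng1 was lower (-0.19, adjusted p = 0.00169). Differences of Trp53inp1 (0.089, adjusted p = 0.139), Pmaip1 (0.047, adjusted p = 0.417) and Sesn1 (0.082, adjusted p = 0.586) did not pass. The leukocyte marker sum was also lower in EGR1OV than in H/R. The tubule marker sum was lower there mostly through the keratins Krt8 (from a mean of 941 to 618 FPKM) and Krt18 (from 606 to 412 FPKM). Of 9 tested tubule markers 1 was called higher and 4 lower, among them Lrp2 (-0.999, from a mean of 3.44 to 1.22 FPKM). With no fold threshold 4 tubule markers were higher and 4 lower, with a median of 0.063. The part of these markers was not tested.

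**Figure D3:**
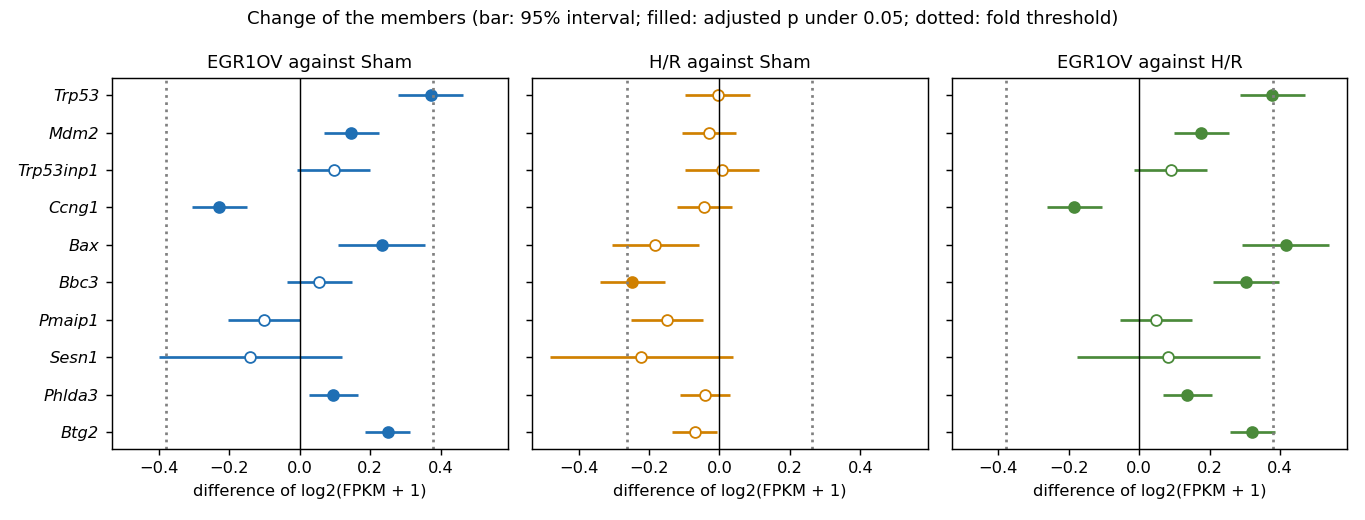
Difference of log2(FPKM + 1) for each member (horizontal) in EGR1OV against Sham, H/R against Sham and EGR1OV against H/R; bars are unadjusted 95% intervals, filled points have an adjusted p under 0.05 and dotted lines mark the fold threshold of each comparison (0.3785, 0.263 and 0.3785). Only Bax in EGR1OV against H/R, at 0.42, lies past a dotted line with a filled point, and Trp53 lies almost on the line in both EGR1OV comparisons.

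The members varied with Trp53 to different degrees and in both directions. Over the 9 libraries, Pearson's r of log2(FPKM + 1) with Trp53 was 0.948 for Btg2, 0.901 for Phlda3, 0.899 for Mdm2 and 0.887 for Bax. It was 0.642 for Bbc3 and 0.601 for Trp53inp1, and -0.183 for Pmaip1, -0.223 for Sesn1 and -0.929 for Ccng1. The 9 points fall in 3 groups, share their normalization, and mostly separate EGR1OV from the rest, so the values are a description with no test. Ranked by the same measure over the 7587 genes that averaged 5 FPKM or more, the genes most like Trp53 were Arpc1b (r = 0.9946), Gfer (0.9945), Plekhm2 (0.993), Prrc2a (0.992) and Txlna (0.992). No member and no listed p53 gene was among these 5. Arpc1b, a subunit of the Arp2/3 actin complex, averaged 40.1 FPKM in Sham libraries, 39.5 FPKM in H/R libraries and 50.8 FPKM in EGR1OV libraries, steps like those of Trp53 (46.2, 46.0 and 60.1 FPKM).

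A longer list of 40 other p53 targets was read in the same way, of which 39 were in the table and tested. In EGR1OV against Sham, 6 were called higher and 1 lower (9.87% and 6.51% of all tested genes), and 17 were higher and 8 lower with no fold threshold (26.1% and 19.8% of all tested genes). Their median was 0.10. In H/R against Sham, 0 were called higher and 3 lower (1.60% and 2.65% of all tested genes), with a median of -0.0080. Another scaling moved these splits, to 5 higher and 2 lower (median-ratio) or 4 and 3 (quantile) in EGR1OV against Sham, and to 1 and 1 or 1 and 2 in H/R against Sham. In EGR1OV against H/R, 7 were called higher and 1 lower (11.9% and 6.94% of all tested genes), with a median of 0.13.

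Cdkn1a held 243, 239.8 and 243.5 FPKM in Sham libraries and 277, 273 and 271 FPKM in EGR1OV libraries, with a mean of 244 ± 6.38 FPKM (SD, n = 3) in H/R. It was higher in EGR1OV than in Sham by 0.18 (SE 0.024, adjusted p = 0.000295), like Mdm2 a smaller factor than Trp53, and was not called. As group means, the ratio of Cdkn1a to Trp53 was 5.25 in Sham, while H/R had 5.30 and EGR1OV 4.56. Pml, which organizes nuclear bodies and is also known as an interferon-induced gene, averaged 13.4 ± 0.221 FPKM in Sham and 49.6 ± 1.56 FPKM in EGR1OV, a difference of 1.81 (SE 0.034, adjusted p = 2.59e-10). It was followed by Dcxr, a xylulose reductase (0.88, from 13.7 to 26.1 FPKM), Ddb2, which recognizes ultraviolet damage (0.80, from 1.75 to 3.75 FPKM), and Cd82, a tetraspanin (0.79, from 13.8 to 24.5 FPKM). The gene called lower was Rprm, a G2 arrest protein, at -0.78 (from 6.90 to 3.61 FPKM).

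In H/R the 3 called targets were all lower. Gdf15 was at 338, 332 and 333 FPKM in Sham and 238, 264 and 251 FPKM in H/R, a difference of -0.41 (SE 0.039, adjusted p = 0.000565), with no overlap. Sesn2, the stress-induced relative of Sesn1, was at 25.8 to 26.1 FPKM in Sham and 20.3 to 22.0 FPKM in H/R (difference -0.295, adjusted p = 0.00209). Under median-ratio scaling it was -0.26 and no longer called. Fas, a death receptor, averaged 5.67 FPKM in Sham and 4.51 FPKM in H/R (difference -0.28, adjusted p = 0.0149). Its call was lost without Sham 1 (-0.27), Sham 3 (-0.25) or H/R 3 (-0.23) and under both other scalings. Gdf15 and Sesn2 were not different from Sham at the threshold in EGR1OV (-0.094, adjusted p = 0.0798, and 0.093, adjusted p = 0.0644), and between EGR1OV and H/R they differed by 0.32 (adjusted p = 0.000137) and 0.39 (adjusted p = 2.14e-05). Sesn2 was called there and in 14 of 19 alternative settings. It was not called without H/R 1 (0.38), H/R 3 (0.36) or EGR1OV 2 (0.36), under median-ratio scaling (0.32) or under quantile normalization (0.28).

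Of 33 regulators and partners of p53, 31 were tested, Trp63 and Trp73 being too low. In EGR1OV against Sham 5 were called higher and 1 lower (9.87% and 6.51% of all tested genes). In H/R against Sham 0 and 1 were called (1.60% and 2.65% of all tested genes). In EGR1OV against H/R 5 and 2 were called (11.9% and 6.94% of all tested genes). The medians of the 31 were 0.0999, -0.016 and 0.15. Mdm4, the partner of Mdm2 that masks the activation domain of p53, was at 7.62, 7.14 and 7.98 FPKM in Sham and at 9.95, 9.39 and 9.44 FPKM in EGR1OV. The groups were separate, by 0.31 (SE 0.043, adjusted p = 0.000364), and Mdm4 was not called. Its mean in H/R was 7.63 FPKM, next to that of Sham.

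Daxx, a histone chaperone that binds p53 and Mdm2 and sits in Pml bodies, was at 11.9, 12.0 and 10.9 FPKM in Sham and at 47.1, 48.3 and 43.8 FPKM in EGR1OV. With 1.91 (SE 0.051, adjusted p = 2.65e-09) it had the largest difference of the 3 lists in that comparison. Bid, the BH3-only protein that links death receptors to Bax, averaged 12.5 ± 0.549 FPKM in Sham and 28.5 ± 0.739 FPKM in EGR1OV (1.13, adjusted p = 3.18e-08). Atm, the kinase that signals double-strand breaks to p53, averaged 3.49 and 5.47 FPKM (0.53, adjusted p = 6.09e-05). Bcl2, the founding survival gene of its family, was the called gene that was lower, at 5.02 ± 0.115 FPKM in Sham and 3.11 ± 0.263 FPKM in EGR1OV (-0.55, adjusted p = 9.32e-05). In H/R the called gene was Chek1, a checkpoint kinase, which averaged 1.92 FPKM in Sham and 1.15 FPKM in H/R (-0.44, SE 0.067, adjusted p = 0.00518) and 1.92 FPKM in EGR1OV.

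**Figure D4:**
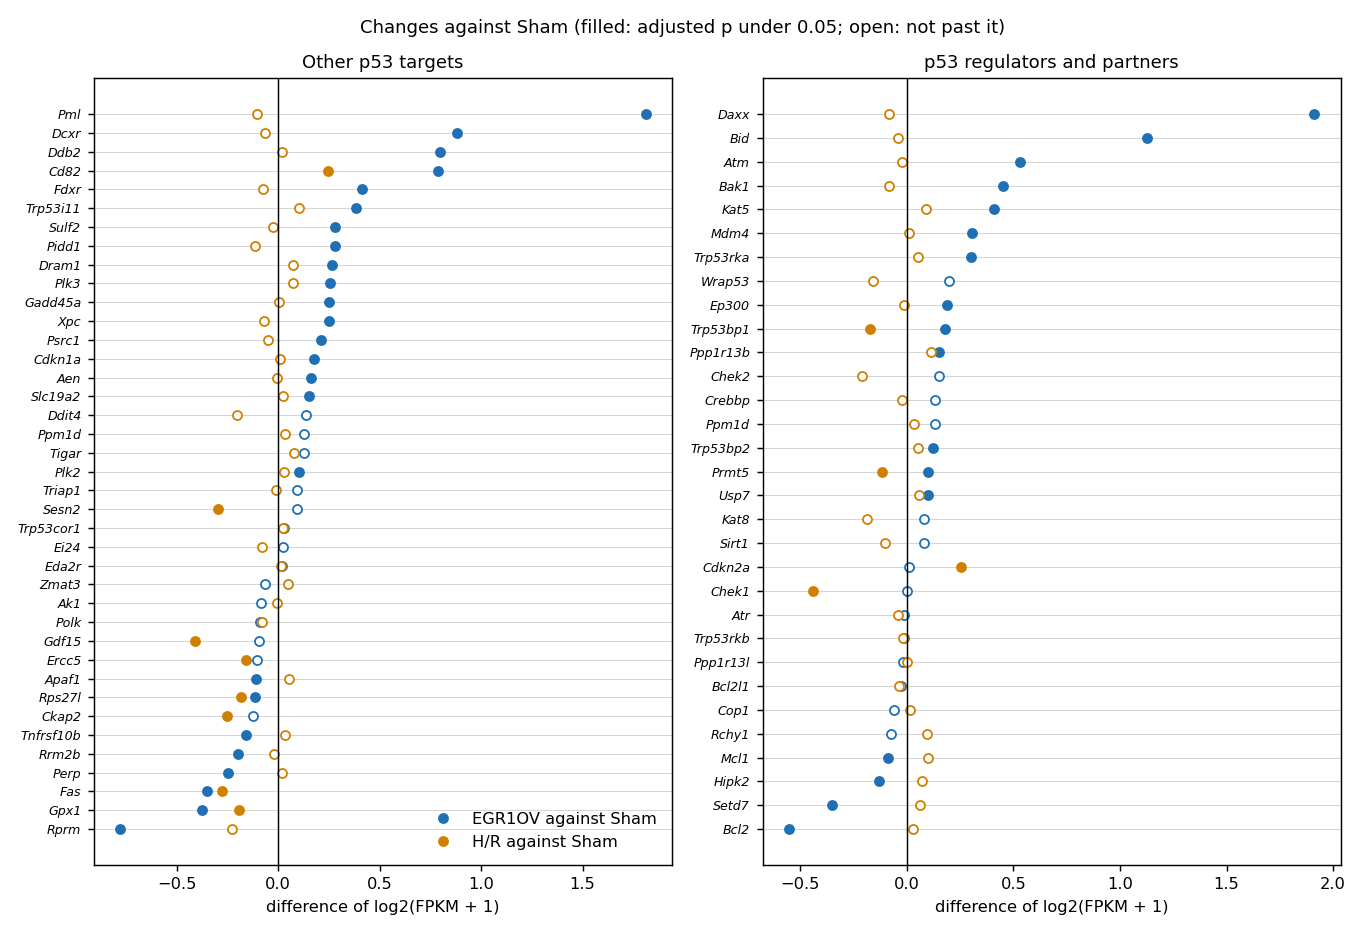
Difference of log2(FPKM + 1) against Sham (horizontal) for the 39 other p53 targets (left) and the 31 tested regulators and partners (right) in EGR1OV (blue) and H/R (orange); filled points have an adjusted p under 0.05 and open points do not. Pml (1.81) and Daxx (1.91) lie far to the right of the other genes in EGR1OV, while the H/R points stay between -0.44 and 0.25.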

How the data were processed

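Total RNA of 9 libraries was sequenced on an Illumina instrument. The authors deposited FPKM values per gene. The submitters' notes name Bowtie2 2.2.3, HISAT2 2.1.0 and TopHat2 with no role, and build mm9, while 94.6% of the gene positions equal GENCODE M21 on GRCm38; strand handling in counting was not given in the sources used here. Columns were mapped to libraries by name.

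FPKM values were tested as log2(FPKM + 1) with limma 3.58.1 (R 4.3.3, trended variance, all 9 libraries in 1 fit, no covariate), with Benjamini-Hochberg adjustment over the 13985 genes that averaged 0.5 FPKM or more. Calls required an adjusted p under 0.05 and a 1.3-fold (EGR1OV) or 1.2-fold (H/R against Sham) difference. Low FPKM values came in steps of whole reads: of 162897 values between 1 and 1000 reads, 94.0% were whole within 0.02. These reads gave the number by which each library was scaled and an alternative count-based test (voom). Only the step that calls genes with limma was tried on simulated data, with planted changes larger than those of the members. Replicates of every group differed beyond counting noise.

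The members and lists were chosen with earlier results of these data known. Named were all members, Cdkn1a and Mdm4, and from each other list up to 4 called genes of largest change per comparison. Promoters came from RefSeq (GRCm38.p6).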

Additional observations from a re-analysis of the deposited data

Results flagged for a closer look

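The changes of EGR1OV and H/R against the same Sham libraries differed, by the direct comparison of EGR1OV with H/R, for 12 named genes, which is how they were picked out. By the same rule 18.9% of all tested genes were called. Apart from Cdkn1a and Mdm4, genes of the 2 other lists were named because they were called in a comparison. The count of 12 is therefore partly fixed by the naming and is not a result. Higher in EGR1OV than in H/R, on the log2(FPKM + 1) scale, were Daxx by 1.998, Pml by 1.91, Bid by 1.17, Dcxr by 0.94, Ddb2 by 0.78, Atm by 0.55, Cd82 by 0.54, Chek1 by 0.44, Bax by 0.42 and Sesn2 by 0.39. Bcl2 (-0.58) and Rprm (-0.55) were lower. Chek1 and Sesn2 were at or near the Sham level in EGR1OV and lower in H/R, whereas Daxx, Pml, Bid, Dcxr, Ddb2 and Atm passed no test in H/R against Sham. Chek1 (0.36), Bax (0.32) and Sesn2 (0.28) were not called under quantile normalization. The part of the transfection in these differences was not tested. Groups of 3 libraries were not searched for single outlying libraries.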

How the results depend on the processing

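Of 567 comparisons of a member's difference with an alternative setting, 539 kept their direction and their side of the threshold, 10 newly passed, 2 no longer passed and 16 changed sign; for the other named genes, 593 of 618 kept both. The counts of called genes are given in the order EGR1OV against Sham, H/R against Sham and EGR1OV against H/R. With no fold threshold they were 6, 1 and 7 members, 25, 8 and 26 other targets, 17, 4 and 21 regulators, and 6417, 1635 and 7135 of all genes, instead of 2291, 594 and 2641. With a mean of at least 5 FPKM they were 1315, 372 and 1520 of all genes, and 0 regulators in H/R against Sham and 5 other targets and 4 regulators in EGR1OV against H/R, where fewer genes were tested. With voom, 1, 1 and 2 members, 5 other targets in H/R against Sham and 1001 of all genes there were called. A pseudocount of 0.1 gave 2 members in EGR1OV against H/R. Median-ratio scaling and quantile normalization both gave 0 members there and 2 regulators in H/R against Sham. Leaving out 1 library gave 0 to 1, 0 to 1 and 1 to 2 members, and 1 to 2 regulators in H/R against Sham. The 1 was Trp53 without Sham 1 or EGR1OV 3, and Bbc3 without H/R 1; the 2 regulators came without Sham 1. Scaling moved the split of all called genes from 1381 higher and 910 lower in EGR1OV against Sham to 1242 and 1020 (median-ratio) and 1059 and 1247 (quantile), in H/R against Sham from 224 and 370 to 319 and 229 and 311 and 239, and in EGR1OV against H/R from 1670 and 971 to 1307 and 1257 and 1112 and 1506. With no fold threshold the 5 higher and 1 lower members of EGR1OV against Sham became 4 and 2 under median-ratio scaling and 2 and 1 under quantile normalization.

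Signs changed only for differences near 0 that passed no test. Under median-ratio scaling H/R against Sham gave 0.035 for Trp53, 0.011 for Mdm2 and 0.00030 for Phlda3, and EGR1OV against H/R gave -0.023 for Pmaip1. Quantile normalization gave -0.044 for Bbc3 in EGR1OV against Sham, 0.0052 for Trp53 in H/R against Sham, and -0.0016 for Trp53inp1 and -0.013 for Sesn1 in EGR1OV against H/R. A covariate for log2 Gm23935, chosen after seeing the data, gave 0.0071 for Trp53, -0.00073 for Trp53inp1 and -0.0070 for Mdm4 in H/R against Sham, with 0, 0 and 1 members called as before. Leaving out 1 library moved H/R against Sham over -0.033 to 0.027 for Trp53, -0.014 to 0.046 for Trp53inp1, -0.028 to 0.043 for Mdm4 and -0.011 to 0.027 for Cdkn1a, and EGR1OV against H/R over -0.032 to 0.18 for Sesn1. The cause was not tested. Deviations from the group means correlated at -0.195 to 0.263 between libraries of the same replicate number and at -0.222 to 0.179 between others. The highest value was that of Sham 3 with EGR1OV 3. Whether the numbers pair libraries was not tested further. With the replicate number as a block, 0, 0 and 1 members and 2309, 516 and 2654 of all genes were called. Sesn1 had 122 to 200 reads per library and the other members 515 or more, which bounds the counting error of each.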
